A study of Mus musculus with 11 samples.

Results

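The genes described here are 7 chemokine receptors of the mouse, Cxcr1, Cxcr2, Cxcr4, Ccr1, Ccr7, Cx3cr1 and Ackr3, out of 57180 gene identifiers in the deposited count table. They were chosen by name as a family headed by Cxcr1, selected on the difference in RNA level between the hyperoxia libraries HM2, HM3 and HF1 to HF3 and the normoxia libraries NM1 to NM3 and NF1 to NF3. Their values in that contrast are therefore given as a description without a test, and tests are given only for sex and for the difference between the sexes in the response to oxygen. All 7 passed the filter on low counts, which left 19948 genes.

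The series measured RNA by bulk sequencing in alveolar macrophages, which clear particles and surfactant from the alveoli, and its title asks about sex as a biological variable. Pups were wild-type C57BL/6 mice, and macrophages were sorted by flow cytometry from homogenised lung on postnatal day (PND) 7. The hyperoxia groups were female (HF1, HF2, HF3) and male (HM2, HM3) pups that breathed 95% oxygen from PND 1 to PND 5. The normoxia groups were female (NF1 to NF3) and male (NM1 to NM3) pups of the same strain and age, and harvest came after the end of the exposure. The labels do not say whether replicates are separate animals or pools, so every test measures only how these libraries vary, and that variation may be technical. The sources used here do not give the sorting gates.

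Chemokine receptors are membrane-spanning receptors that couple to inhibitory G proteins and steer leukocytes up gradients of secreted chemokines, and receptor kinases and beta-arrestins then end the signal. Cxcr1 and Cxcr2 are the receptors of the CXC chemokines that recruit neutrophils, and human CXCR1 is a receptor of CXCL8, a chemokine without a direct counterpart in mice. Cxcr4 holds cells in place through Cxcl12, and the atypical receptor Ackr3 removes Cxcl12 without G protein signalling. Ccr1 answers inflammatory CC chemokines, Ccr7 guides dendritic cells and lymphocytes to lymph nodes, and Cx3cr1, the fractalkine receptor, is known for its presence on monocytes and many tissue macrophages.

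Cxcr1 and Cxcr2 are neighbours on chromosome 1, 30.5 kb apart in the GENCODE M21 annotation with 0 protein-coding genes between them, and their RNA differed in opposite directions between the oxygen groups. Their promoter windows (250 bases before to 50 bases after the annotated start, RefSeq on GRCm38.p6, a different build from that of the counts) are shown because the pair is set side by side below. Both are written 5′ to 3′ on the gene's own strand, the minus strand at chr1:74194582-74194881 for Cxcr1 and the plus strand at chr1:74153744-74154043 for Cxcr2, and capitals mark matches to the motifs named next.
Cxcr1: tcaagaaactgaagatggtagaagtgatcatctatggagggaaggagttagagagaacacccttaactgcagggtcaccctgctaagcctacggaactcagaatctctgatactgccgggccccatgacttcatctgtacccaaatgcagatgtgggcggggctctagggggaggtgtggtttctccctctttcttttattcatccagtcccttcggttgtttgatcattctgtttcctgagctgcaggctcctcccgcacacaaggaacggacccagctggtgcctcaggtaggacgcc
Cxcr2: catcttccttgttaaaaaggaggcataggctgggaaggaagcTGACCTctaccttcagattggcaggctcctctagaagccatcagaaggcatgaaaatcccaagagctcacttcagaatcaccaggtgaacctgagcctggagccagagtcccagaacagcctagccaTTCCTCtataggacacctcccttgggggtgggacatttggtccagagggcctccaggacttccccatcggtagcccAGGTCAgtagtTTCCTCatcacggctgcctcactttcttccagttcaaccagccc

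A set of 6 short motifs was searched on both strands, namely a PU.1 core (GAGGAA), a C/EBP motif (TTNNGNAA), a single PPAR/RXR repeat (AGGTCA), an AP-1 motif (TGANTCA), a HIF motif (ACGTG) and a TATA box (TATAAA). The Cxcr1 window held none of these letters. The Cxcr2 window held the PU.1 core at 2 places and the PPAR/RXR repeat at 2 places, with no overlap between them. Of 32817 RefSeq mouse promoter windows of this length, 28.3% held the PU.1 core, 40.7% the C/EBP motif, 16.3% the PPAR/RXR repeat, 7.8% the AP-1 motif, 19.6% the HIF motif and 13.6% the TATA box. Windows were matched for 6 of the 7 receptors, not for Ccr7. Ccr1 had overlapping matches to the PU.1 core and the C/EBP motif, Cxcr4 and Ackr3 each had the C/EBP motif and the TATA box, and the Cx3cr1 window held none of the 6.

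Total counts ran from 18087948 to 32579468 per library. In NM3, NF3, HF2 and HF3, 33158 to 35530 genes had at least 1 count, against 26856 to 30173 in the other 7 libraries, so values are also given without these 4. HF1 is then the only hyperoxia female library left. Libraries of a group all differed by more than sampling noise (chi-square per gene of at least 18.1). Of 16 alveolar macrophage markers 16 were tested, and their summed level was 6700 to 9370 CPM (counts scaled to library size, edgeR's CPM) in hyperoxia and 6040 to 10500 CPM in normoxia. Fabp1, Fabp4, Ear1 and Krt79 fell with hyperoxia in edgeR's quasi-likelihood test (Benjamini-Hochberg adjusted), which makes 4 of the 16, where 0.165% of all genes fell, and 0 rose.

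Cxcr1 was the receptor with the largest difference between the oxygen groups among the 7. It stood at 0.63, 0.381 and 0.687 CPM in HF1 to HF3 and 0.591 and 0.262 CPM in HM2 and HM3, against 1.62, 3.09 and 6.9 CPM in NF1 to NF3 and 4.43, 2.17 and 1.34 CPM in NM1 to NM3. Every hyperoxia library lay below every normoxia library, in both sexes, and the normoxia libraries spread widely, with NF3 and NM1 highest. Of the 7 receptors Cxcr1 alone had groups that did not overlap, where 2.16% of all genes tested had such groups and 0.396% had hyperoxia lower. The means were 0.51 ± 0.18 CPM in hyperoxia (SD, n = 5) and 3.26 ± 2.11 CPM in normoxia (SD, n = 6). The fitted log2 fold change was -2.69 ± 0.46 (SE) over both sexes, which is 6.47-fold lower in hyperoxia. It was -2.76 ± 0.59 in females and -2.62 ± 0.70 in males. In females it was -2.05 without NF3 and -1.89 without NF3, HF2 and HF3 (with NM3 left out too), and in males it was -3.29 without HM2.

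These levels rest on few reads. Cxcr1 had 19, 13 and 20 counts in HF1 to HF3 and 15 and 7 in HM2 and HM3, against 51, 87 and 160 in NF1 to NF3 and 83, 52 and 26 in NM1 to NM3. All are above the floor of 3 counts, which corresponds to 0.088 to 0.16 CPM. Without the 4 libraries with most genes detected the log2 fold change was -2.42 ± 0.49. In sorted cells measured in bulk, fewer cells that carry a transcript and less of it per cell cannot be told apart.

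Cxcr1 is best known from neutrophils, and neutrophil markers were read beside it. Ly6g, which defines mouse neutrophils, had 0 counts in all 11 libraries, and Retnlg was at most 0.276 CPM in hyperoxia and 0.249 CPM in normoxia. S100a8, a calcium-binding protein abundant in neutrophils, was 6.86 to 11.9 CPM in hyperoxia and 3.28 to 8.66 CPM in normoxia. The 16 markers summed to 162 to 203 CPM in hyperoxia and 210 to 257 CPM in normoxia, so the sums did not overlap and were lower in hyperoxia, as Cxcr1 was. Most of each sum was Mcemp1, at 115 to 149 CPM in hyperoxia and 161 to 212 CPM in normoxia, and Csf3r, the G-CSF receptor, at 10.2 to 19 CPM in hyperoxia and 17.7 to 50.3 CPM in normoxia. Of 13 markers tested, 1 rose and 0 fell in edgeR's quasi-likelihood test, where 0.541% of all genes rose. It was Mmp8, a collagenase, at 18.6 to 25.7 CPM in hyperoxia and 6.09 to 17.2 CPM in normoxia (log2 fold change 1.08 ± 0.22, adjusted p = 0.0298 in the same edgeR test). The part of these markers in the Cxcr1 result was not tested.

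Cxcr2, the receptor encoded next to Cxcr1, ran the other way. It stood at 10.6, 6.1 and 4.29 CPM in HF1 to HF3 and 6.42 and 6.96 CPM in HM2 and HM3, against 4.1, 6.37 and 4.61 CPM in NF1 to NF3 and 5.92, 4.17 and 4.13 CPM in NM1 to NM3. The groups overlapped, HF1 was the highest library and HF3 was within the normoxia range. Means were 6.88 ± 2.32 CPM in hyperoxia (SD, n = 5) and 4.88 ± 1.01 CPM in normoxia (SD, n = 6), and the log2 fold change was 0.49 ± 0.23 (SE). Without HF1 the female log2 fold change was 0.05 in place of 0.48, and without the 4 libraries the value over both sexes was 0.72 ± 0.23. That last value keeps HF1, the highest library for Cxcr2, as its only hyperoxia female. In the annotated transcripts 6.68% of the 50-base stretches of Cxcr2, and 0 of those of Cxcr1, also occur in other genes, and none is shared between the pair.

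Set against each other per kilobase of exon, the ratio of Cxcr1 to Cxcr2 was 0.121, 0.128 and 0.327 in HF1 to HF3 and 0.188 and 0.0769 in HM2 and HM3. In normoxia it was 0.808, 0.994 and 3.06 in NF1 to NF3 and 1.53, 1.06 and 0.664 in NM1 to NM3. Cxcr2 exceeded Cxcr1 in 5 of 5 hyperoxia libraries and in 3 of 6 normoxia libraries. The plot of receptor RNA in each library shows these values beside those of the other 5 receptors.

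**Figure D1:**
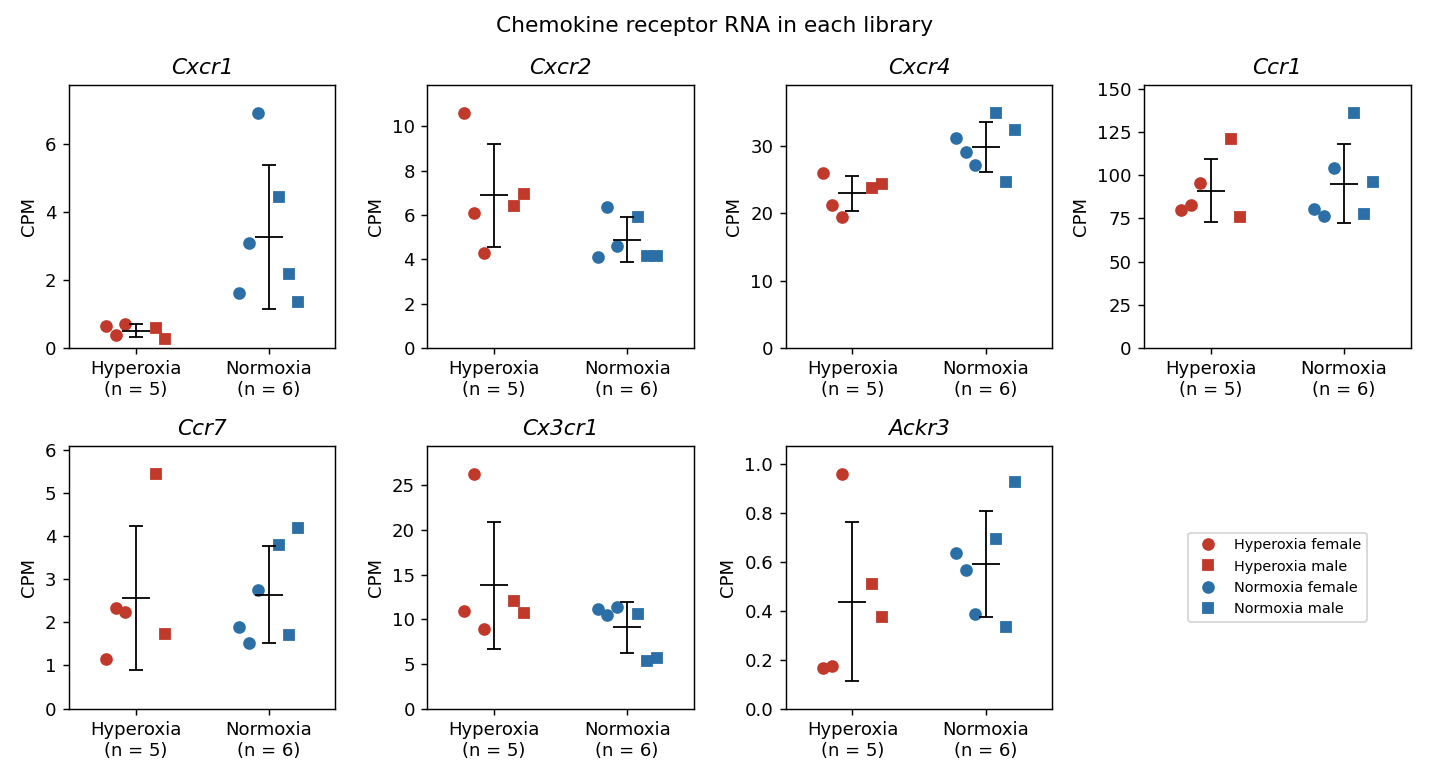
CPM of each receptor in each library (circles female, squares male; red hyperoxia, blue normoxia), with the mean and SD of 5 hyperoxia and 6 normoxia libraries. For Cxcr1 the 5 hyperoxia libraries, at 0.262 to 0.687 CPM, all lie below the 6 normoxia libraries, at 1.34 to 6.9 CPM, and for the other 6 receptors the groups overlap.

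Cxcr4, the Cxcl12 receptor, was the least variable of the 7 within groups. It stood at 26, 21.2 and 19.5 CPM in HF1 to HF3 and 23.8 and 24.4 CPM in HM2 and HM3, against 31.2, 29.1 and 27.2 CPM in NF1 to NF3 and 34.9, 24.6 and 32.4 CPM in NM1 to NM3. NM2 was the only normoxia library below a hyperoxia library. Means were 23 ± 2.59 CPM in hyperoxia (SD, n = 5) and 29.9 ± 3.72 CPM in normoxia (SD, n = 6), and the log2 fold change was -0.37 ± 0.15 (SE), or -0.26 ± 0.16 without the 4 libraries. The SD of log2 CPM within groups was 0.189, lower than that of all but 6.67% of the genes tested, against 0.783 for Cxcr1.

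Ackr3, the Cxcl12 scavenger, was close to the limit of detection. It stood at 0.166, 0.176 and 0.961 CPM in HF1 to HF3 and 0.512 and 0.374 CPM in HM2 and HM3, against 0.636, 0.569 and 0.388 CPM in NF1 to NF3 and 0.694, 0.333 and 0.929 CPM in NM1 to NM3. HF3 and NM3 were highest, HF1 and HF2 lowest, and the counts behind these levels were 5 to 28 in hyperoxia and 8 to 20 in normoxia. The log2 fold change was -0.42 ± 0.60 (SE), and it was -1.08 without HF3 and -1.01 ± 0.60 without the 4 libraries. That last value keeps HF1, the lowest library for Ackr3, as its only hyperoxia female. In females the log2 fold change was -1.61 without HF3, where all libraries gave -0.30.

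Endothelial markers were read beside Ackr3. Cdh5, the cadherin of endothelial junctions, was 14.6 CPM in HF3 and 4.87 and 4.72 CPM in HF1 and HF2, and it was 23.8 CPM in NM3, its highest library. The 8 endothelial markers summed to 97.1 to 148 CPM in hyperoxia and 111 to 188 CPM in normoxia, none is at 0 in all libraries, and Vwf was the largest part of each sum. Vwf ran the other way from Cdh5, at 131, 79.1 and 68.7 CPM in HF1 to HF3. The other markers were, like Cdh5, higher in HF3 than in HF1 and HF2. The sum was 148, 101 and 116 CPM in HF1 to HF3, and it was highest in NF1, at 188 CPM, with NM3 at 140 CPM. Of the 8 tested, 0 passed edgeR's quasi-likelihood test (Benjamini-Hochberg adjusted; 1 had an unadjusted p under 0.05, as 8.13% of all genes did, and DESeq2 called Cldn5 lower, where it called 2.25% of all genes), with a median log2 fold change of -0.57, against -0.03 for all genes. Their part in the Ackr3 values was not tested.

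Ccr1, a receptor of inflammatory CC chemokines, was the most abundant of the 7 and nearly level between the groups. It stood at 79.9, 82.9 and 95.7 CPM in HF1 to HF3 and 121 and 75.6 CPM in HM2 and HM3, against 80.4, 76.2 and 104 CPM in NF1 to NF3 and 136, 77.7 and 95.9 CPM in NM1 to NM3. The ranges overlapped almost fully, and NM1 and HM2 were highest. Means were 91.1 ± 18.4 CPM in hyperoxia (SD, n = 5) and 95.1 ± 23 CPM in normoxia (SD, n = 6). The log2 fold change was -0.04 ± 0.19 (SE), with an interval (95%) of -0.45 to 0.37, and it ran from -0.22 without HM2 to 0.12 without HM3.

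Ccr7, the lymph node homing receptor, was low and uneven. It stood at 1.16, 2.32 and 2.23 CPM in HF1 to HF3 and 5.44 and 1.72 CPM in HM2 and HM3, against 1.88, 1.53 and 2.76 CPM in NF1 to NF3 and 3.79, 1.71 and 4.18 CPM in NM1 to NM3. HM2 was the highest library and the groups overlapped. The log2 fold change was 0.02 ± 0.35 (SE). Without HM2 it was -0.49 over both sexes and -0.87 in males, where all libraries gave 0.15, and without HM3 it was 0.34 over both sexes and 0.79 in males.

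Dendritic cell markers were read beside Ccr7, which mature dendritic cells carry. Fscn1, an actin-bundling protein of mature dendritic cells, was 10.1 CPM in HM2 and 2.92 CPM in HF1, the highest and lowest hyperoxia libraries for Ccr7 as well, and 13.9 CPM in NM3. The 10 markers summed to 12.3 to 33 CPM in hyperoxia and 13.5 to 34.1 CPM in normoxia, with none at 0 in all libraries. Of the 10 tested, 0 passed edgeR's quasi-likelihood test, and 1 had an unadjusted p under 0.05, as 8.13% of all genes did. DESeq2 called Clec9a higher, where it called 2.25% of all genes. Their part in the Ccr7 values was not tested.

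Of the 21 pairs among the 7 receptors, Ccr1 and Ccr7 had the highest correlation of log2 CPM, a pair picked after the values were seen. Over 11 libraries Pearson's r was 0.836 and Spearman's rho 0.864, r was 0.822 for deviations from the group means, and it was 0.751 without NM1 and HM2. The points share libraries and scaling, so this is a description only. Cxcr1 and Cxcr2 had r = -0.389 over the 11 libraries and r = 0.226 for deviations from the group means, and Cxcr1 and Cxcr4 had 0.62 and -0.06.

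Cx3cr1, the fractalkine receptor, was higher on average in hyperoxia, and 1 library carried much of that. It stood at 10.9, 26.3 and 8.96 CPM in HF1 to HF3 and 12.1 and 10.7 CPM in HM2 and HM3, against 11.2, 10.5 and 11.4 CPM in NF1 to NF3 and 10.6, 5.33 and 5.63 CPM in NM1 to NM3. HF2 stood far above the rest, NM2 and NM3 were lowest, and the other libraries lay between 8.96 and 12.1 CPM. Means were 13.8 ± 7.09 CPM in hyperoxia (SD, n = 5) and 9.12 ± 2.84 CPM in normoxia (SD, n = 6), and the log2 fold change was 0.57 ± 0.25 (SE). Without HF2 it was 0.26 over both sexes and -0.15 in females, and without the 4 libraries it was 0.27 ± 0.23. A stretch of 78 bases, 1.73% of the annotated exon length of Cx3cr1, overlaps the antisense gene Gm33858, and reads there could belong to either.

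The summed markers of monocytes and of interstitial macrophages were also highest in HF2. C1qb, a complement subunit of interstitial macrophages, was 26.2 CPM in HF2, 6.77 to 15.2 CPM in the other hyperoxia libraries and 5.67 to 11.5 CPM in normoxia. Ly6c2, a marker of classical monocytes, was 5.72 CPM in HF2, 0.434 to 1.1 CPM in the other hyperoxia libraries and 0.0417 to 0.877 CPM in normoxia. The 10 interstitial macrophage markers summed to 317 to 553 CPM in hyperoxia and 334 to 443 CPM in normoxia. Most of each of these sums was Apoe, at 279 to 422 CPM in hyperoxia and 313 to 418 CPM in normoxia. The 10 monocyte markers summed to 158 to 283 CPM in hyperoxia and 118 to 185 CPM in normoxia. None of either list is at 0 in all libraries. In edgeR's quasi-likelihood test, 0 of 9 interstitial macrophage markers tested passed (4 had an unadjusted p under 0.05, against 8.13% of all genes, and DESeq2 called 1 higher, against 2.25% of all genes called), with a median log2 fold change of 1.08. Likewise 0 of 10 monocyte markers passed (4 under an unadjusted 0.05, against the same 8.13%, and DESeq2 called Nr4a1 and Treml4 higher), with a median of 0.71. Their part in the Cx3cr1 values was not tested.

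**Figure D2:**
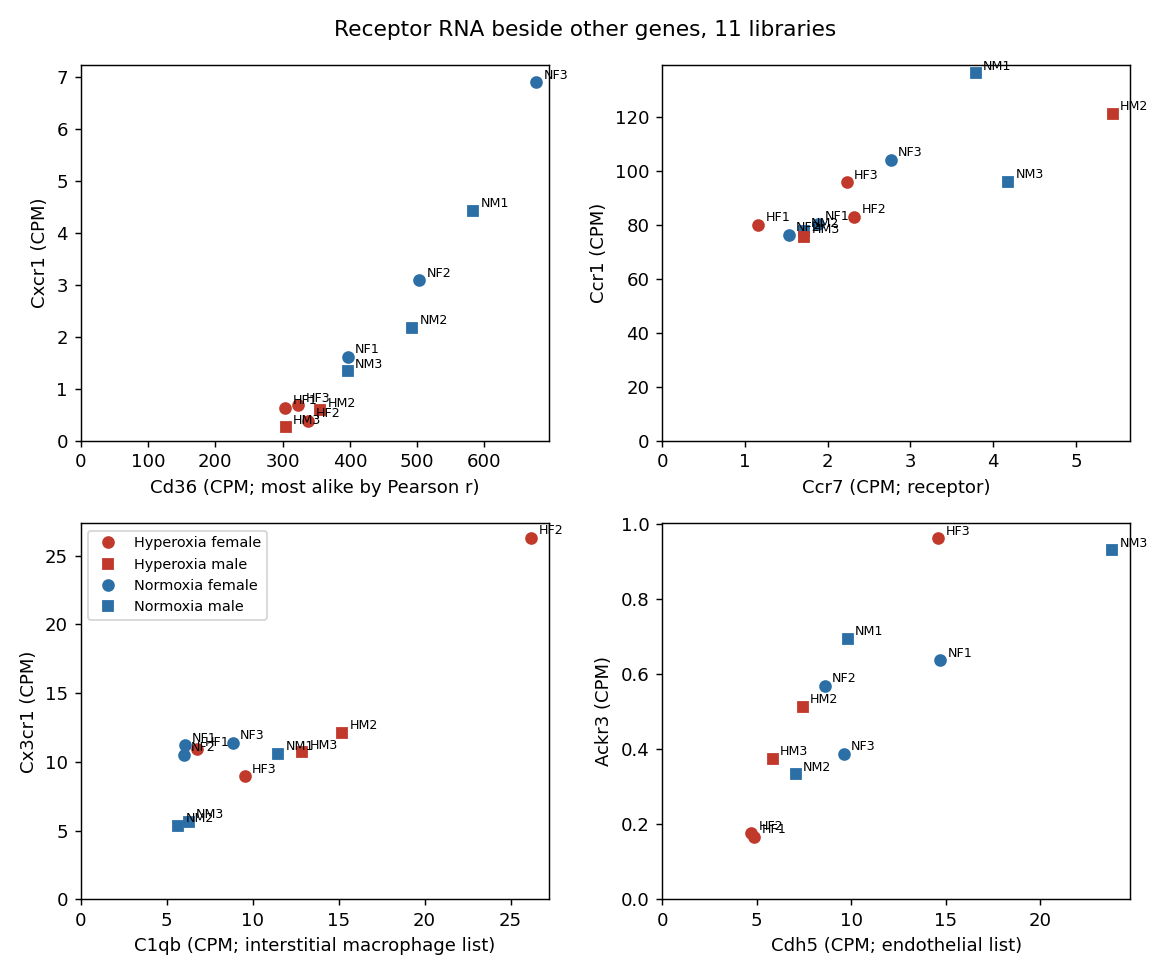
CPM of a receptor against CPM of another gene in the 11 libraries (circles female, squares male; red hyperoxia, blue normoxia). NF3 and NM1 are highest for both Cxcr1 and Cd36, HF2 stands apart at 26.3 CPM of Cx3cr1 and 26.2 CPM of C1qb, and HF3 and NM3 are highest for Ackr3.

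For each of the 7 receptors the fitted fold changes in females and in males differed by less than their standard errors. The plot of fold changes by sex gives them with their standard errors, which are wide for Cxcr1, Ccr7 and Ackr3.

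**Figure D3:**
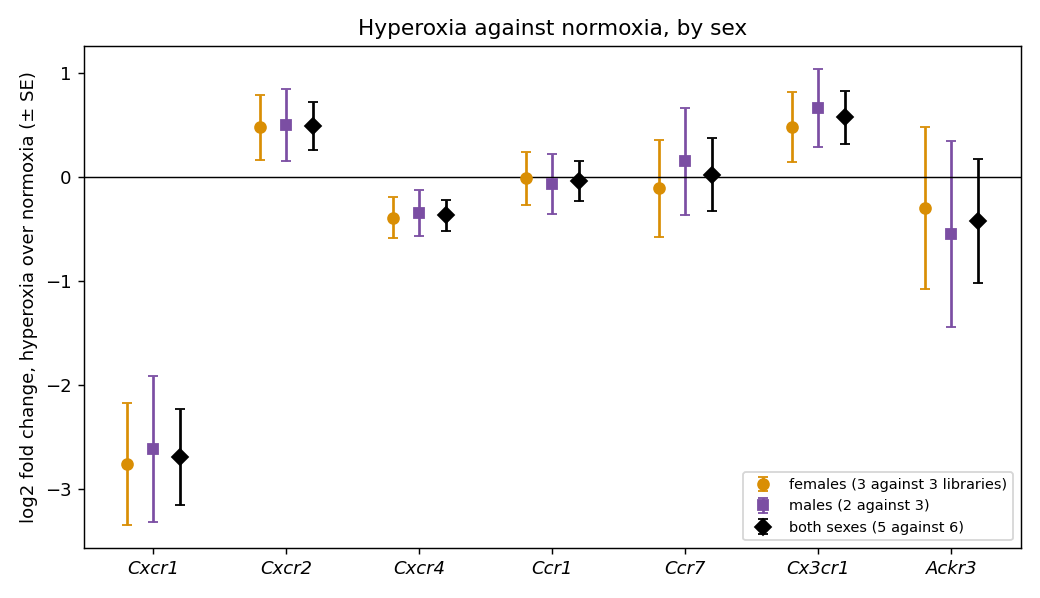
Fitted log2 fold change of hyperoxia over normoxia (± SE) for each receptor in females (3 against 3 libraries), in males (2 against 3) and over both sexes. Cxcr1 lies at -2.76 in females and -2.62 in males, and the other receptors lie between -0.55 and 0.67.

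The difference between the sexes in response, which the choice of genes did not use, was tested. None of the 7 receptors passed edgeR's quasi-likelihood test (Benjamini-Hochberg adjusted p of 1 for each), and 0 had an unadjusted p under 0.05. Over all genes 0 of 19948 passed (0%), with 334 at an unadjusted p under 0.05 and 3 genes called by DESeq2. For Cxcr1 the female response minus the male response was -0.14 ± 0.89 on the log2 scale, with an interval of -2.03 to 1.75. The narrowest intervals were those of Cxcr4, at -0.67 to 0.58, and Ccr1, at -0.76 to 0.87. Without the 4 libraries the value of Cxcr1 was 1.04 ± 0.92, of the other sign, with HF1 as the only hyperoxia female library.

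Female and male libraries were also compared over both oxygen groups. None of the 7 passed edgeR's quasi-likelihood test (Benjamini-Hochberg adjusted), where 5 of all genes did (0.0251%), and DESeq2 called 0 of the 7. The smallest unadjusted p belonged to Ccr7, at 0.0384 with an adjusted p of 0.994 from edgeR's quasi-likelihood test, for a log2 difference of female minus male of -0.78 ± 0.35. Ccr7 means were 1.9 ± 0.645 CPM in hyperoxia females and 3.58 ± 2.63 CPM in hyperoxia males, and 2.06 ± 0.634 CPM in normoxia females and 3.23 ± 1.33 CPM in normoxia males (SD, n = 3, 2, 3 and 3). The Ccr7 difference was -0.25 without HM2. Cx3cr1 differed by 0.53 ± 0.26 and Cxcr1 by 0.47 ± 0.44, female minus male, each with an adjusted p of 0.994 from edgeR's quasi-likelihood test. For Cx3cr1 the normoxia females, at 10.5 to 11.4 CPM, included values above all 3 normoxia males, at 5.33 to 10.6 CPM. The remaining log2 differences were 0.08 ± 0.23 for Cxcr2, -0.09 ± 0.15 for Cxcr4, -0.22 ± 0.19 for Ccr1 and -0.16 ± 0.59 for Ackr3.

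Levels of different genes were compared as CPM per kilobase of exon. Ccr1 averaged 32.1 ± 6.51 in hyperoxia and 33.6 ± 8.13 in normoxia, and Cxcr4 12.7 ± 1.43 in hyperoxia and 16.5 ± 2.05 in normoxia. Cx3cr1 averaged 3.06 ± 1.57 in hyperoxia and 2.02 ± 0.63 in normoxia, and Cxcr2 2.26 ± 0.76 in hyperoxia and 1.6 ± 0.33 in normoxia. Cxcr1 averaged 0.342 ± 0.121 in hyperoxia and 2.19 ± 1.41 in normoxia, Ccr7 1.3 ± 0.843 in hyperoxia and 1.33 ± 0.572 in normoxia, and Ackr3 0.131 ± 0.0975 in hyperoxia and 0.177 ± 0.0647 in normoxia (SD, n = 5 and 6 throughout).

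In this order Ccr1 exceeded Cxcr4, and Cxcr4 exceeded Cx3cr1, in 11 of 11 libraries, and Ccr7 exceeded Ackr3 in 11 of 11. The middle of the order is not separated by the spread. Cx3cr1 exceeded Cxcr2 in 8 of 11 libraries, Cxcr2 exceeded Cxcr1 in 8 of 11, and Cxcr1 exceeded Ccr7 in 5 of 11, namely 0 of 5 in hyperoxia and 5 of 6 in normoxia. Of the summed CPM per kilobase of the 7 receptors, Cxcr1 made 0.382% to 0.924% in hyperoxia and 1.56% to 7.47% in normoxia. Ccr1 made 56.9% to 67.8% in hyperoxia and 53.3% to 62.6% in normoxia.

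Among all 29 chemokine and chemoattractant receptors listed, the formyl peptide receptors Fpr1 and Fpr2, which sense bacterial peptides, and the complement receptor C5ar1 stood above Ccr1. Fpr1 averaged 63.9 ± 7.5 CPM per kilobase in hyperoxia and 77.2 ± 18.2 in normoxia (SD, n = 5 and 6). Ccr1 and Cxcr4 took places 4 and 5, Cx3cr1 and Cxcr2 places 8 and 9, Cxcr1 and Ccr7 places 11 and 12, and Ackr3 place 17, by the mean over all libraries. In normoxia alone the mean of Cxcr1 lay above those of Cx3cr1 and Cxcr2, and in hyperoxia it lay below that of Ccr7, by the values above. The normoxia libraries ran from 0.9 in NM3 to 4.63 in NF3 for Cxcr1 and from 1.18 to 2.54 for Cx3cr1, so their ranges overlapped.

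**Figure D4:**
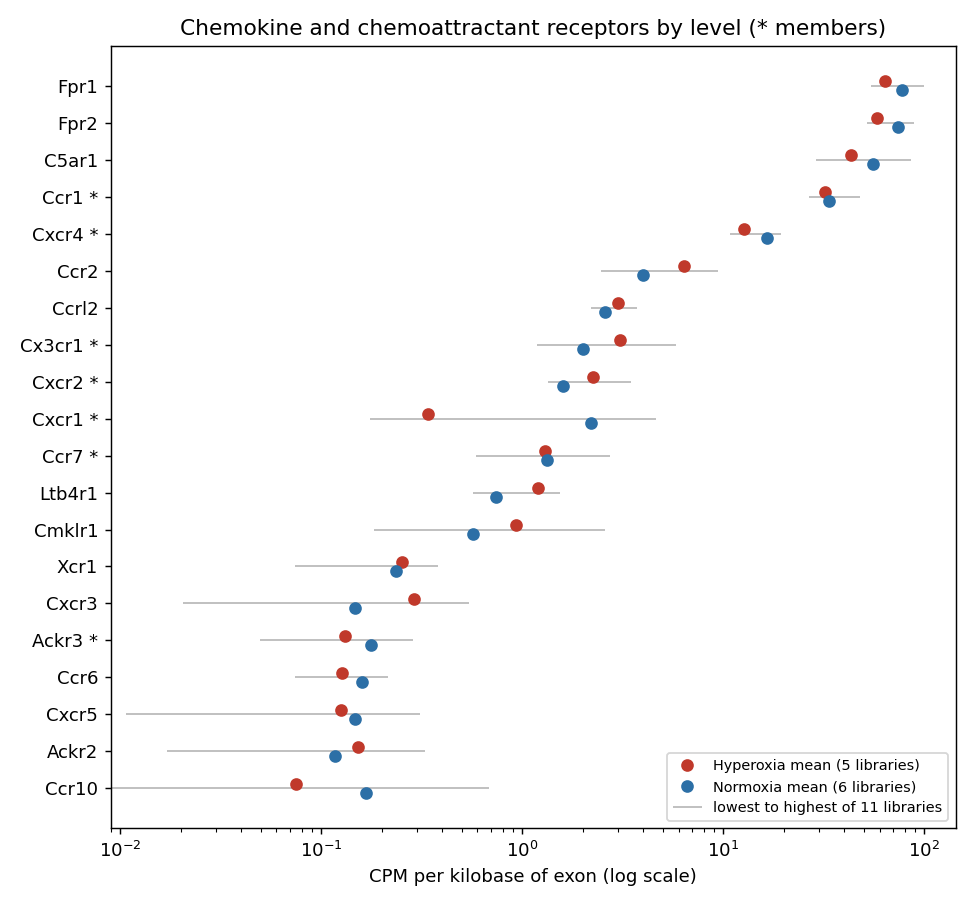
Mean CPM per kilobase of exon (log scale) in hyperoxia (red) and normoxia (blue), with the range over 11 libraries, for a selection of the listed receptors with a mean above 0.1 per kilobase; stars mark the 7 receptors described here. The 2 means of Cxcr1, 0.342 and 2.19, stand farther apart than those of any other starred receptor.

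Of the other 22 chemokine and chemoattractant receptors, 16 were tested and 0 passed edgeR's quasi-likelihood test (Benjamini-Hochberg adjusted), where 0.707% of all genes did. Of the 16, 3 had an unadjusted p under 0.05 in that test, against 8.13% of all genes. DESeq2 called 0, where it called 2.25% of all genes, and gave no adjusted p for 7. The median log2 fold change of the 16 was 0.07, against -0.03 for all genes. Ccr2, the monocyte receptor of Ccl2, had 32.3 to 63.6 CPM in hyperoxia and 16.7 to 36.9 CPM in normoxia, with HF2 highest, and a log2 fold change of 0.70 ± 0.23 (adjusted p = 0.251, edgeR). It passed edgeR's test without NM1, at an adjusted p of 0.0351, and with no filter, at 0.0407. Log2 fold changes were -0.37 ± 0.16 for Fpr2, -0.29 ± 0.19 for Fpr1 and -0.36 ± 0.23 for C5ar1.

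RNA of the ligands of these receptors was read in the same bulk libraries, and which of the sorted cells carried it was not tested. Of 40 chemokines listed, with Mif, 24 were tested and 0 passed edgeR's quasi-likelihood test. Of the 24, 4 had an unadjusted p under 0.05 in that test, against 8.13% of all genes. DESeq2 called Cxcl3 lower and Cxcl14 higher, where it called 2.25% of all genes. The median log2 fold change was 0.01, against -0.03 for all genes.

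For Cxcr1 and Cxcr2, 5 of 7 ligands were tested, with a median of -0.52. Cxcl3 stood at 0.265, 0.616 and 0.275 CPM in HF1 to HF3 and 0.749 and 0.636 CPM in HM2 and HM3, against 0.413, 1.1 and 2.76 CPM in NF1 to NF3 and 4.11, 1.37 and 0.981 CPM in NM1 to NM3. NM1 and NF3, the 2 libraries with most Cxcr1, were also highest for Cxcl3. Its log2 fold change was -1.74 ± 0.54, with an adjusted p of 0.198 from edgeR's quasi-likelihood test and 0.037 from DESeq2. Cxcl2, another neutrophil attractant, had 2.95 to 5.97 CPM in hyperoxia and 2.19 to 10.8 CPM in normoxia (-0.70 ± 0.29, adjusted p = 0.486, edgeR). Mif, a cytokine that also binds Cxcr2 and Cxcr4, had 20.2 to 26.9 CPM in hyperoxia and 13.4 to 33.8 CPM in normoxia (-0.08 ± 0.20). Cxcl15, a lung epithelial chemokine, had 1.68 to 5.73 CPM in hyperoxia and 0.75 to 4.7 CPM in normoxia (0.58 ± 0.44).

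Cxcl12, the ligand of Cxcr4 and Ackr3, stood at 4.61, 4.72 and 4.91 CPM in HF1 to HF3 and 5.71 and 3.78 CPM in HM2 and HM3, against 9.06, 10.2 and 4.53 CPM in NF1 to NF3 and 6.78, 5.04 and 8.77 CPM in NM1 to NM3. NF3 and NM2 lay within the hyperoxia range, and the log2 fold change was -0.64 ± 0.23 (adjusted p = 0.339, edgeR). For Ccr1, 5 of 7 ligands were tested, with a median log2 fold change of 0.03. Ccl6, a CC chemokine that macrophages secrete in quantity, was by far the most abundant, at 4660 to 6170 CPM in hyperoxia and 4010 to 6940 CPM in normoxia (0.03 ± 0.22). Ccl9 had 255 to 424 CPM in hyperoxia and 98.9 to 401 CPM in normoxia (0.65 ± 0.35, adjusted p = 0.732, edgeR). Ccl3 and Ccl4, inflammatory CC chemokines, had log2 fold changes of 0.38 ± 0.34 and -0.12 ± 0.60.

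The Ccr7 ligands were scarcely seen. Ccl19, Ccl21a and Ccl21b summed to 0.0293 to 0.481 CPM in hyperoxia and 0.0417 to 0.31 CPM in normoxia, and none passed the filter. Cx3cl1, the fractalkine that Cx3cr1 binds, had 14.3 to 29.2 CPM in hyperoxia and 13.1 to 29.5 CPM in normoxia, with a log2 fold change of -0.01 ± 0.22. Of 19 ligands of other receptors 12 were tested, with a median of 0.25. Cxcl14, a chemokine of barrier tissues, had 4.84 to 8.71 CPM in hyperoxia and 2.43 to 5.18 CPM in normoxia (0.86 ± 0.23). Its adjusted p was 0.117 from edgeR's quasi-likelihood test, 0.0371 in that test without NM1, and 0.0455 from DESeq2. Ccl2, the Ccr2 ligand, was 0.133 to 1.38 CPM in hyperoxia and 0.155 to 0.587 CPM in normoxia (1.06 ± 0.68, or 0.18 without HM2 and -0.20 without the 4 libraries). Ccl24, an eosinophil attractant, was 0.137 to 0.946 CPM in hyperoxia and 0.142 to 3.36 CPM in normoxia (-0.83 ± 0.58). Ccl22, Ccl25 and Cxcl16 had log2 fold changes of -0.38 ± 0.32, 0.05 ± 0.21 and 0.15 ± 0.20.

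Of 32 genes that carry or end chemokine receptor signals, 31 were tested, and 1 rose and 0 fell in edgeR's quasi-likelihood test, where 0.541% of all genes rose and 0.165% fell. The median log2 fold change was -0.05, against -0.03 for all genes. The gene that rose was Arrb1, which encodes beta-arrestin 1, an adaptor that uncouples and internalises activated receptors. It stood at 77.2, 83.7 and 62 CPM in HF1 to HF3 and 60.1 and 70.6 CPM in HM2 and HM3, against 48.7, 49.9 and 40.5 CPM in NF1 to NF3 and 25.7, 41.2 and 26.2 CPM in NM1 to NM3. Every hyperoxia library lay above every normoxia library, as for 1.76% of all genes. The log2 fold change was 0.88 ± 0.17 (adjusted p = 0.0226, edgeR's quasi-likelihood test). The fold stayed between 0.80 and 1.01 when libraries were left out singly, and the adjusted p in the same test became 0.0641 without NF1, 0.107 without HM2, 0.216 without HM3, 0.0536 without HF1, 0.0853 without HF2 and 0.119 without the 4 libraries.

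Arrb2, the other beta-arrestin, was not among the genes named by rule and is added for its kinship, with 123 to 163 CPM in hyperoxia and 85.8 to 149 CPM in normoxia. Gnai2, the main inhibitory G protein subunit of leukocytes, had 629 to 902 CPM in hyperoxia and 442 to 1030 CPM in normoxia (-0.02 ± 0.23). Dock2 and Prex1, which activate Rac in migrating cells, had log2 fold changes of 0.05 ± 0.23 and -0.10 ± 0.25. Tyrobp, an immune receptor adaptor, had 171 to 349 CPM in hyperoxia and 269 to 479 CPM in normoxia (-0.54 ± 0.21, adjusted p = 0.411, edgeR), and Rgs2, which shortens G protein signals, 62.9 to 83.2 CPM in hyperoxia and 48.9 to 71.5 CPM in normoxia (0.35 ± 0.16, adjusted p = 0.571, edgeR).

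**Figure D5:**
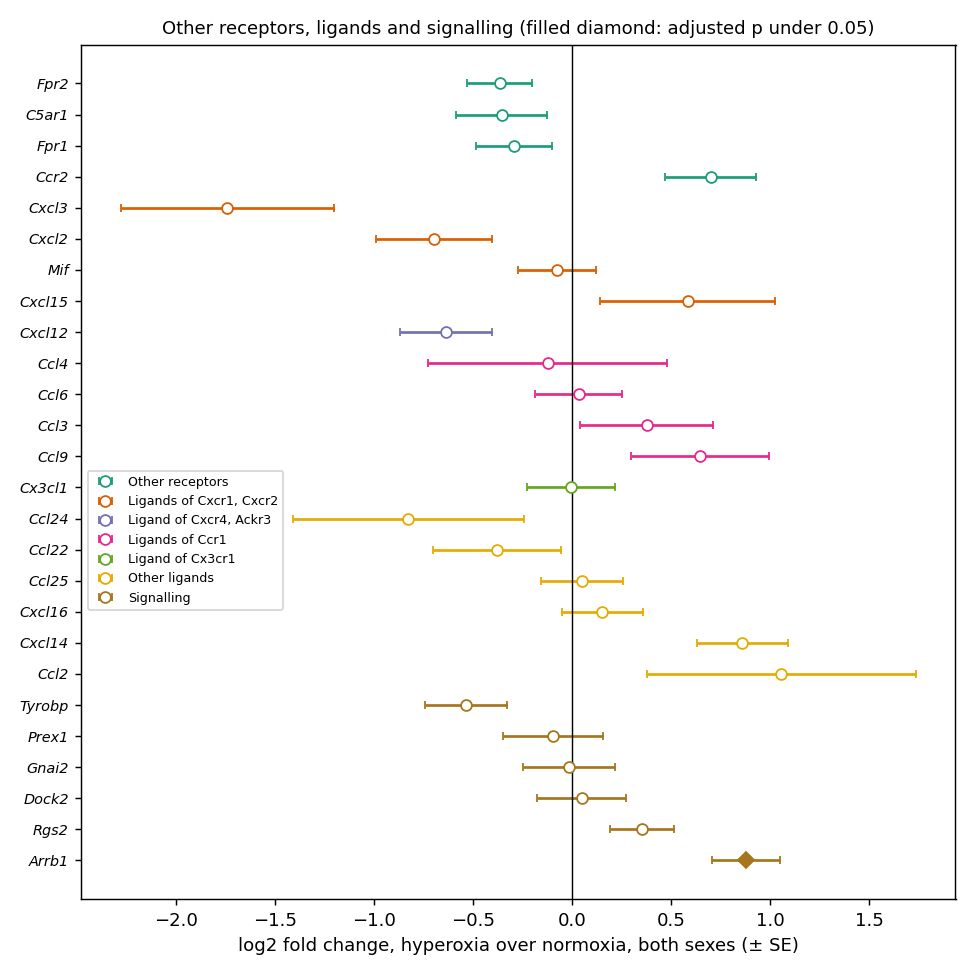
Fitted log2 fold change of hyperoxia over normoxia over both sexes (± SE) for the genes given in the text among other receptors, ligands and signalling genes, coloured by list; a filled diamond marks an adjusted p under 0.05 in edgeR's quasi-likelihood test. Arrb1, at 0.88, is the only filled point, and Cxcl3, at -1.74, lies farthest from 0.

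Genes whose pattern over the 11 libraries was most like each receptor were named by Pearson's r of log2 CPM, among 11246 genes including the receptor where it is that abundant, with a mean log2 CPM of at least 1. For Cxcr1 the first was Cd36, a scavenger receptor for lipids, with r = 0.96 over all libraries and 0.904 for deviations from the group means. Cd36 had 304 to 356 CPM in hyperoxia and 397 to 677 CPM in normoxia, with NF3 and NM1 highest, as for Cxcr1. Atp6v1c1, a subunit of the vacuolar proton pump (0.941), Snap23, a membrane fusion protein (0.935), Ctsk, a lysosomal protease (0.927), and Slc39a2, a zinc transporter (0.923), followed. Each of these 5 had hyperoxia libraries below all normoxia libraries, where 0.396% of all genes tested did. They were picked for likeness to Cxcr1, whose own groups do not overlap, so this separation is no independent result. The r for deviations from the group means was 0.754 to 0.904.

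The likeness was lower for Cxcr2, with Mak16 (0.825), Dnajc10 (0.815) and Smn1 (0.807), and for Cxcr4, with Zkscan14 (0.876), Tsc22d3 (0.875) and Gm41307 (0.863). Ccr1 was most like Haus1 (0.94), Rab5if (0.927) and A430005L14Rik (0.926), and Ccr7 most like Arl4a (0.899), Idnk (0.89) and Pex2 (0.88). Cx3cr1 was most like Sc5d (0.924), Ifi204 (0.921) and Clec4a1 (0.916), and Ifi204 had 57.1 CPM in HF2, where it was highest too. Ackr3 was most like Cdh5 (0.887), Kdr (0.876) and Pcdh1 (0.861), and Cdh5 and Kdr belong to the endothelial list. All these r are over 11 libraries that fall into 2 oxygen groups and are descriptions of likeness only. By Spearman's rho the genes most like a receptor were largely others, 1 of 5 being shared for Cxcr1, 1 of 3 each for Cxcr4 and Ackr3, and 0 of 3 for the rest.

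Markers of the other cell types that a lung sort could hold summed to far less than those of alveolar macrophages. The epithelial and mesenchymal sums were nevertheless above the levels of Cxcr1, Cxcr2, Ccr7 and Ackr3 in every library, and the part of these cells in the receptor values was not tested. The 11 T and NK cell markers summed to 5.17 to 13.3 CPM in hyperoxia and 4.33 to 9.65 CPM in normoxia, and the 6 B cell markers to 6.1 to 7.86 CPM in hyperoxia and 3.62 to 11 CPM in normoxia. The 9 mesenchymal markers summed to 24.4 to 71.8 CPM in hyperoxia and 36.5 to 92.3 CPM in normoxia, and the 9 epithelial markers to 55.7 to 130 CPM in hyperoxia and 36.9 to 80.2 CPM in normoxia. In edgeR's quasi-likelihood test 0 genes of these 4 lists passed. DESeq2 called 1, Epcam, lower, where it called 2.25% of all genes. An unadjusted p under 0.05 was found for 0 T and NK cell, 0 B cell, 3 mesenchymal and 2 epithelial markers, against 8.13% of all genes.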

How the data were processed

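Bulk RNA-seq libraries of sorted mouse alveolar macrophages were analysed from a deposited table of whole-number read counts per Ensembl gene and library, not normalized by the authors. Per the labels' protocols, a low-input full-length cDNA kit was used, the first 8 nucleotides, unique molecular identifiers, were trimmed, and some libraries were purified and resequenced; which ones is not clear from the labels. Build mm39 and, in alphabetical order, DESeq2 1.42, R 4.3.2, Salmon 1.10.1, STAR 2.7.9 and Trim Galore 0.6.7 are named per the submitters' processing notes. Not given in the sources used here are their roles, the annotation, strand and any collapsing of duplicates, so reads of overlapping or near-identical genes can be split. No UMI-based molecule count is claimed, and floors cover counting error only.

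Symbols were matched for 51884 of 57180 identifiers (90.7%). The analysis used edgeR 4.0.16 under R 4.3.3. Genes were filtered by filterByExpr (a count of about 10, a total of 15), libraries were scaled by TMM, and a robust quasi-likelihood model with 1 mean per oxygen-by-sex group was fitted to all 11 libraries. Each of 5 contrasts was tested with Benjamini-Hochberg adjustment over 19948 genes, with 0.05 as the threshold. Depths ran from 18087948 to 32579468 counts. Standard errors come from the F statistic. Exon lengths and gene neighbours come from GENCODE M21 (GRCm38), promoters from RefSeq. The fit was tested on simulated data. The alternatives were median-of-ratios scaling, no filter on low counts, DESeq2 1.42.0, a replicate block, each library left out in turn, the 4 libraries with most genes detected left out, other length scalings, and other measures of likeness.

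The receptors, gene lists and tests were chosen with earlier results of these data known. Named genes are the receptors and, from each list of receptors, ligands and signalling genes, those past the threshold, up to 3 of highest mean level and up to 3 of smallest p over both sexes; a gene this rule names and a marker gene are not reported here. Likeness is Pearson's r of log2 CPM with a prior count of 2, with 5 genes named for Cxcr1 and 3 for each other receptor. Same-numbered libraries of different groups did not pair throughout: of 15 pairs 7 had a correlation of deviations over 0.1, with a range of -0.358 to 0.615. It was 0.416 for NM3 with NF3, 0.523 for NM3 with HF3, 0.615 for NF3 with HF3 and 0.52 for NM2 with NF2. Every pair with HM2 or HM3 was below 0. These libraries make up their whole group, so their deviations are equal and opposite, and these pairs are not separate results. Whether some libraries share a batch was not tested.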

Additional observations from a re-analysis of the deposited data

Results flagged for a closer look

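In the 5 hyperoxia libraries, HM2 held 5.44 CPM of Ccr7, far from the next library at 2.32 CPM, with the lowest at 1.16 CPM. The gap made 0.73 of the range, where Dixon's 95% critical value for 5 samples is 0.71. HF2 held 26.3 CPM of Cx3cr1, far from the next hyperoxia library at 12.1 CPM, with the lowest at 8.96 CPM and a gap of 0.821 of the range. For these 7 receptors 14 groups were examined, and chance alone marks about 1 group in 20.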

How the results depend on the processing

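Of 656 recomputed fold changes that carry a test, 568 kept their direction and their side of the threshold, 6 lost and 7 gained a call, and 75 changed sign, none with an adjusted p under 0.05 in edgeR's or DESeq2's test. Of 336 recomputed hyperoxia fold changes of the receptors, given without a test, 26 changed sign, all of Ccr1, Ccr7, Cx3cr1 or Ackr3. The log2 fold change of Cxcr1 over both sexes ran from -3.03 (without HM2) to -2.34 (without NF3) over all alternatives. The number of genes past the threshold over both sexes (141) was 302 with no filter on low counts, 448 with DESeq2, 256 with the replicate block and 23 when NM3, NF3, HF2 and HF3 were all left out (below, without the 4 libraries). In males (8) it was 83, 89, 21 and 16 under these alternatives, and in females (8) 96, 95, 23 and 2. The difference between the sexes in response (0) had 6 genes with no filter, 3 with DESeq2 and 1 without the 4 libraries. The sex difference (5) had 62 with no filter, 35 with DESeq2 and 9 with the replicate block. Leaving out single libraries gave 36 to 195 genes over both sexes, 0 to 19 in males, 0 to 24 in females, 0 to 1 for the difference in response and 5 to 14 for sex. The numbers shared between groups did not pair the libraries throughout, so the replicate block results are values only. The block ended no call of a named gene.

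Changes of sign concerned fold changes near 0 or with wide errors, and none of these values passed the test. For the difference in response, the values without the 4 libraries were 1.04 for Cxcr1, 0.61 for Cxcr2, 0.086 for Cxcr4 and -1.64 for Ackr3. HF1 was the only hyperoxia female library there. With the replicate block the values were -0.0039 for Ccr1 and -0.12 for Ackr3. Leaving out single libraries gave -0.75 to 0.57 for Cxcr1, -0.45 to 0.24 for Cxcr2, -0.17 to 0.091 for Cxcr4, -0.27 to 0.41 for Ccr1, -0.89 to 0.76 for Ccr7, -0.81 to 0.094 for Cx3cr1 and -1.06 to 0.63 for Ackr3. For sex, Cxcr2 was -0.011 with the replicate block and -0.14 to 0.20 without single libraries, Cxcr4 was 0.056 without the 4 libraries, and Ackr3 was -0.82 to 0.037 without single libraries. For hyperoxia over both sexes, single libraries left out gave -0.22 to 0.12 for Ccr1 and -0.49 to 0.34 for Ccr7, in males -0.42 to 0.25 for Ccr1 and -0.87 to 0.79 for Ccr7, and in females -0.12 to 0.14 for Ccr1, -0.31 to 0.16 for Ccr7, -0.15 to 0.76 for Cx3cr1 and -1.61 to 0.084 for Ackr3. Over both sexes Ccl6 was -0.0015 under median-of-ratios scaling and DESeq2. With the replicate block Cx3cl1 was 0.084, Gnai2 0.087 and Prex1 0.013, and without the 4 libraries Ccl4 was 0.16, Cx3cl1 0.043 and Ccl2 -0.20. Without single libraries the ranges were -0.058 to 0.18 for Ccl6, -0.30 to 0.088 for Ccl4, -0.18 to 0.17 for Cx3cl1, -0.62 to 0.022 for Ccl22, -0.11 to 0.20 for Ccl25, -0.17 to 0.10 for Gnai2, -0.057 to 0.22 for Dock2, -0.23 to 0.089 for Prex1 and -0.24 to 0.026 for Mif. The causes were not tested. Depth limits Cxcr1 in hyperoxia, Ackr3 and the Ccr7 ligands, which rest on a few reads per library. The order of the 7 receptors by level was the same per kilobase of the longest transcript.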
